A study of Saccharomyces cerevisiae with 3 samples.

Results

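The nuclear genes of the mitochondrial respiratory chain and ATP synthase were followed in 3 two-colour arrays of baker's yeast, Saccharomyces cerevisiae. The list held 39 genes, chosen by symbol for their place in the chain or the synthase, and 38 of them had spots among the 5539 named genes of the arrays, each with 2 spots. ATP18, for subunit i/j of the synthase, was not analysed here. On every array, total RNA of a mutant with the YAP1 gene deleted, in the Cy3 channel, was set against total RNA of the wild type, in the Cy5 channel. Both strains had been kept for 1 h with arsenite, As(III), at 0.2 mM. The labels call the arrays replicates 1, 2 and 3, all of the same dye orientation, so that a dye effect and a strain difference cannot be told apart. They give no strain background, no way in which the deletion was made and do not say whether each array had a culture of its own. The spread behind the p-values is therefore that of these 3 hybridisations and may be technical, and so few arrays limit the precision.

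The chain passes electrons from NADH and succinate through ubiquinone, the cytochrome bc1 complex (complex III) and cytochrome c to cytochrome oxidase (complex IV), and the proton gradient that complexes III and IV build drives the ATP synthase. Baker's yeast has no proton-pumping complex I and uses single-polypeptide NADH dehydrogenases in its place. Most subunits are encoded in the nucleus, a few in mitochondrial DNA, and many of the nuclear genes are activated by the heme-dependent regulator Hap1 and by the Hap2/3/4/5 complex, and are repressed on glucose. Yap1, the factor missing from the mutant, activates genes of antioxidant defence and detoxification.

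The deposited table gave a log ratio for each spot. Neither the direction of the ratio nor the base of the logarithm was given in the sources used here, so values are given in the table's own log units after subtracting the median of the named genes of the same array. Genes are described as high or low against this array median, and which strain had more of a transcript is not stated. Centring also removes any difference in total RNA between the strains. YAP1 itself lay at −1.43, −0.22 and −0.74 on replicates 1, 2 and 3, with a mean of −0.80 ± 0.61 (SD, n = 3; limma adjusted p = 0.0323). Its call was lost without replicate 1 (−0.48, adjusted p = 0.226) and without replicate 3 (−0.83, adjusted p = 0.197), and also with its last spot alone (−0.32, adjusted p = 0.452). YAP1 therefore did not settle which way the ratio runs. As deposited, all 38 genes lay below 0 on all arrays, between −3.65 and −1.06 on replicate 1, between −3.43 and −0.64 on replicate 2 and between −2.68 and −0.86 on replicate 3, as did 98.4, 98.9 and 96.9% of all named genes.

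The genes of the chain lay on both sides of the array median, and few stood far from it. In limma, which tests the mean of the 3 arrays against 0 with a spread shared across genes (two-sided, Benjamini-Hochberg adjustment over all 5539 genes, threshold 0.05), 9 of the 38 genes passed, or 23.7%, against 28.5% of all named genes. On the high side there were 6 of 38 (15.8%, against 16.0% of all named genes): CYT1, NDE2, CYC1, RIP1, COX5B and QCR7. On the low side there were 3 (7.9%, against 12.5%): COX7, NDI1 and QCR2. The shares of called genes were thus at or below those of the arrays as a whole. An unadjusted p under 0.05 was reached by 17 of the 38 genes and by 2261 of all 5539 named genes.

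The median of the 38 genes was 0.20, and it was 0.21, 0.17 and 0.21 on replicates 1, 2 and 3, where the median of all genes is 0 by construction. Of the 38, 24 lay on the same side of the median on all 3 arrays (63.2%, against 58.9% of all named genes), 17 of them above it and 7 below it. The means ran from −0.96 (COX7) to 1.08 (CYT1), where those of all named genes ran from −2.47 to 2.77, and the median SD of a gene over the arrays was 0.340 for these genes and 0.359 for all genes. Across the 38 genes the arrays correlated with Pearson coefficients of 0.549 (replicates 1 and 2), 0.547 (1 and 3) and 0.616 (2 and 3), against 0.631, 0.623 and 0.736 across all genes. These are descriptions across genes that share slides and are not independent.

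**Figure D1:**
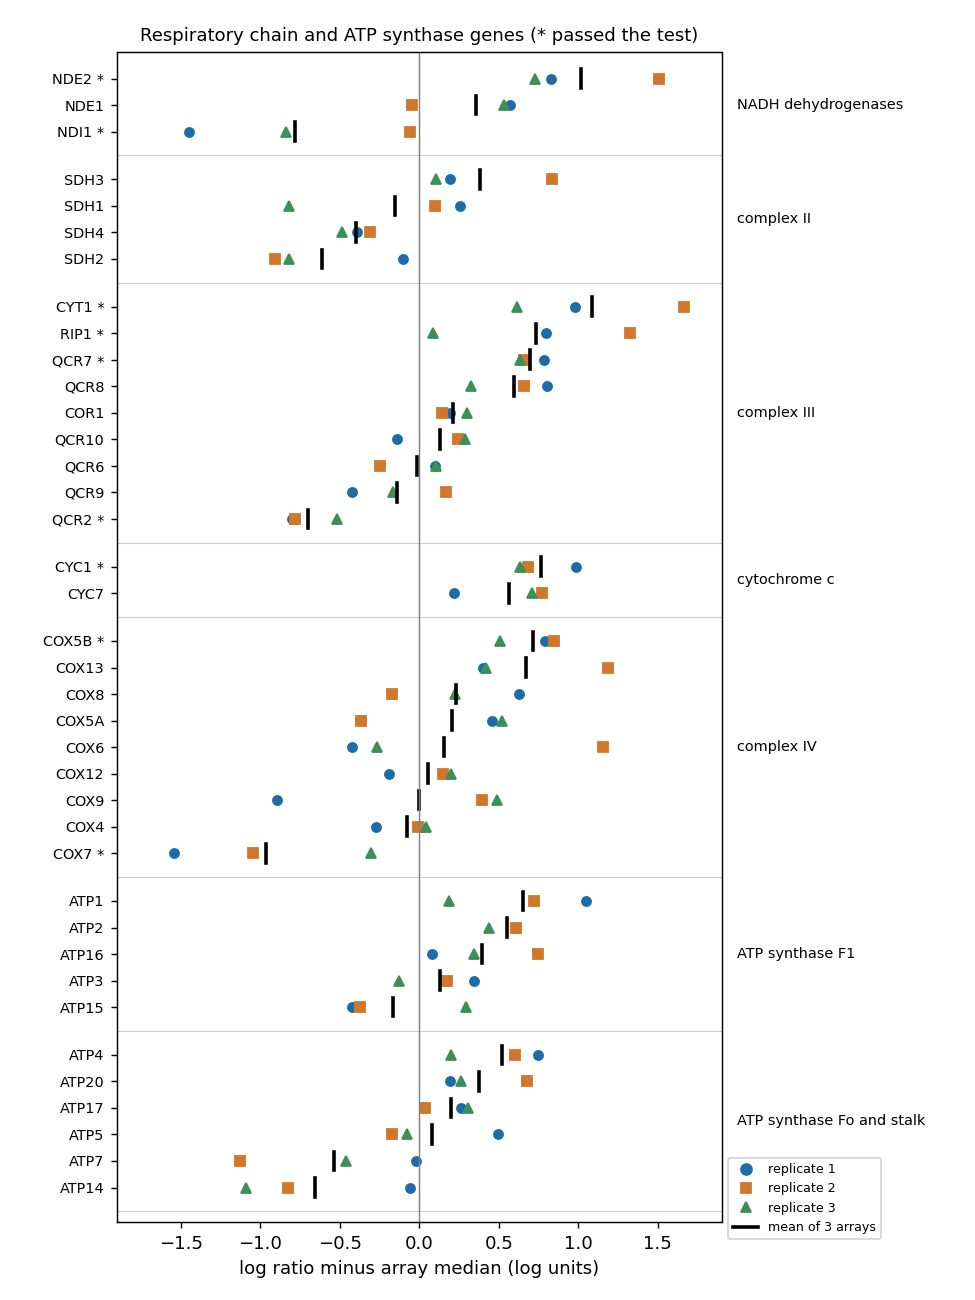
Log ratio minus the array median, in log units, of the 38 measured genes on each of the 3 arrays (circle, square and triangle), with the mean as a bar and a star beside genes that passed the limma test. CYT1 and NDE2 had the highest means (1.08 and 1.02) and COX7 the lowest (−0.96), and 14 of the 38 genes had arrays on both sides of the median.

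The threshold fell between genes of much the same value. The member just inside it was RIP1, at 0.74 with an adjusted p of 0.0461, and those just outside were COX13, for subunit VIa of cytochrome oxidase (0.67, adjusted p = 0.0527), and ATP1, for the alpha subunit of the synthase (0.65, adjusted p = 0.0574). The calls also rested on all 3 arrays together. Without replicate 3, 0 of the 38 genes passed, where 323 of all named genes did (5.83%), and without replicate 2 the only calls were the low-side ones of COX7 and NDI1 (5.26%, against 16.0% of all named genes). Without replicate 1, 7 genes passed (18.4%, against 26.1%): CYT1 and NDE2 again, with CYC7 and COX13 on the high side and SDH2, ATP7 and ATP14 on the low side.

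The NADH dehydrogenases, which feed electrons into the chain, lay far apart from each other. NDE2 (YDL085W), for an external enzyme that oxidises cytosolic NADH at the outer face of the inner membrane, had values of 0.83, 1.51 and 0.72 on replicates 1, 2 and 3. Among all genes of an array, its percentile was 84.5 on replicate 1, 93.8 on replicate 2 and 88.7 on replicate 3. Its mean was 1.02 ± 0.43 (SD, n = 3; limma adjusted p = 0.00651), and the call was lost without replicate 2 (0.78, adjusted p = 0.0916) or replicate 3 (1.17, adjusted p = 0.0769). NDI1 (YML120C), for the internal enzyme that oxidises NADH of the matrix, had −1.45, −0.06 and −0.84. Replicate 2 was thus near the middle of the array, at the 47.1st percentile, while replicates 1 and 3 were at the 2.3rd and 7.1st. The mean was −0.78 ± 0.70 (SD, n = 3; adjusted p = 0.0413), and it did not pass without replicate 1 (−0.45, adjusted p = 0.268) or replicate 3 (−0.75, adjusted p = 0.255). On replicate 2 its spots were at 0.71 and −0.83, on opposite sides of the median. NDE1 (YMR145C), for the other external enzyme, had 0.57, −0.04 and 0.54 and did not pass (0.35 ± 0.34, SD, n = 3; adjusted p = 0.279).

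Complex II, succinate dehydrogenase, links the citric acid cycle to the chain. In limma 0 of its 4 genes passed, beside 28.5% of all named genes. Of the 4, 1 had an unadjusted p under 0.05. In the other settings run 0 or 1 passed, leaving aside values as deposited and values set against spots without a gene symbol. SDH2 (YLL041C), for the iron-sulfur subunit, came nearest with −0.10, −0.91 and −0.82. It was close to the array median on replicate 1 alone, with a mean of −0.61 ± 0.44 (SD, n = 3; adjusted p = 0.0750), and passed without that array (−0.86, adjusted p = 0.0188). SDH4 (YDR178W), for a membrane anchor, was low on all arrays at −0.39, −0.31 and −0.48, but near the median (−0.40 ± 0.09, SD, n = 3; adjusted p = 0.204). SDH3 (YKL141W), for the cytochrome b subunit of the anchor, lay above the median on all arrays at 0.20, 0.84 and 0.11, and SDH1 (YKL148C), for the flavoprotein, had 0.26, 0.10 and −0.82. With 95% intervals of −0.13 to 0.89 for SDH3 and −0.70 to 0.39 for SDH1, neither was separated from 0.

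Complex III, the cytochrome bc1 complex, held genes on both sides, and 4 of its 9 passed, beside 28.5% of all named genes. CYT1 (YOR065W), for cytochrome c1, the heme protein that hands electrons to cytochrome c, was the highest of all 38 genes with 0.98, 1.66 and 0.61. All of its spots were above 0, and the mean was 1.08 ± 0.53 (SD, n = 3; limma adjusted p = 0.00552). It did not pass without replicate 2 (0.79, adjusted p = 0.0822) or replicate 3 (1.32, adjusted p = 0.0638). RIP1 (YEL024W), for the Rieske iron-sulfur protein of the same catalytic core, had 0.79, 1.33 and 0.09. It was high on replicates 1 and 2 and close to the median on replicate 3, with a mean of 0.74 ± 0.62 (SD, n = 3; adjusted p = 0.0461). Its value was 0.44 without replicate 2 (adjusted p = 0.402), and the call was lost without each of the other arrays too (adjusted p = 0.0617 without replicate 1 and 0.0828 without replicate 3). RIP1 also did not pass with print blocks centred, with arrays scaled to equal spread, with quantile normalization or with 1 spot a gene. Loss with 1 spot a gene was not particular to RIP1, as QCR7, CYC1 and COX5B passed with neither spot alone. NDI1 did not pass with its first spot alone, and QCR2 did not with its last. CYT1, NDE2 and COX7 passed with each spot alone.

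Among the subunits of complex III without a redox centre, QCR7 (YDR529C), for a small subunit, had 0.79, 0.66 and 0.63, values that differed little between arrays (0.69 ± 0.08, SD, n = 3; adjusted p = 0.0333). QCR8 (YJL166W), for another small subunit, had 0.80, 0.66 and 0.32 and did not pass (0.59 ± 0.25, SD, n = 3; adjusted p = 0.0678). QCR2 (YPR191W), for core protein 2, lay at −0.80, −0.78 and −0.52, the only gene of the complex below the median on all arrays (−0.70 ± 0.16, SD, n = 3; adjusted p = 0.0332). COR1 (YBL045C), for core protein 1, its partner in the matrix-facing core, had 0.19, 0.14 and 0.30, so the core genes lay on opposite sides on each array, though COR1 did not pass (adjusted p = 0.511). Without a single array, the adjusted p of QCR7 was between 0.0920 and 0.136 and that of QCR2 between 0.0905 and 0.169, with means of 0.65 to 0.72 and of −0.79 to −0.65. QCR6, for the acidic hinge protein, QCR9 and QCR10, for small subunits, had means of −0.01, −0.14 and 0.13, and each of them had arrays on both sides.

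Cytochrome c, the soluble carrier between complexes III and IV, is made from 2 isoform genes in yeast, and both lay above the median on all arrays. CYC1 (YJR048W), for iso-1, the main form in air, had 0.98, 0.69 and 0.63 and passed (0.77 ± 0.19, SD, n = 3; limma adjusted p = 0.0220). CYC7 (YEL039C), for iso-2, the form favoured at low oxygen, had 0.22, 0.77 and 0.71 and did not (0.57 ± 0.30, SD, n = 3; adjusted p = 0.0841). Replicate 1 set them apart: without it CYC7 passed (0.74, adjusted p = 0.0498) and CYC1 did not (0.66, adjusted p = 0.0843). CYC1 did not pass without replicate 2 (0.81, adjusted p = 0.0757) or replicate 3 (0.84, adjusted p = 0.113).

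Complex IV, cytochrome oxidase, is represented by its nuclear subunits. Here 2 of 9 genes passed, on opposite sides, beside 28.5% of all named genes. COX7 (YMR256C), for subunit VII, was the lowest of all 38 genes with −1.54, −1.05 and −0.30. It was farthest from the median on replicate 1, at the 1.7th percentile, and nearest on replicate 3, at the 28.1st. The mean was −0.96 ± 0.62 (SD, n = 3; limma adjusted p = 0.0133), and the call was lost without replicate 1 (−0.68, adjusted p = 0.0764) or replicate 3 (−1.29, adjusted p = 0.0600). COX5B (YIL111W), for the low-oxygen isoform of subunit V, had 0.79, 0.85 and 0.51 (0.71 ± 0.18, SD, n = 3; adjusted p = 0.0309). Its adjusted p was between 0.0759 and 0.179 without a single array, with means of 0.65 to 0.82. COX13 (YGL191W) had 0.40, 1.19 and 0.42, above the median throughout, and passed without replicate 1 (0.80, adjusted p = 0.0307).

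The other 6 genes of cytochrome oxidase had means near the array median, from −0.08 for COX4 to 0.23 for COX8, and each of them had arrays on both sides. The spread was wide for some. COX6 (YHR051W), for subunit VI, stood at 1.15 on replicate 2 against −0.42 and −0.27 on replicates 1 and 3. COX9 (YDL067C), for subunit VIIa, stood at −0.89 on replicate 1 against 0.39 and 0.49 on replicates 2 and 3, and that low value came from 1 spot, at −1.89, beside the other at 0.10. COX5A (YNL052W), for the aerobic isoform of subunit V, had 0.46, −0.37 and 0.52. COX4, for subunit IV, and COX12, for subunit VIb, stayed within 0.27 units of the median on every array, and COX8, for subunit VIII, had 0.63, −0.17 and 0.23.

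The ATP synthase was represented by 11 genes, of which 0 passed in limma on either side (4 had an unadjusted p under 0.05), beside 28.5% of all named genes. In the catalytic F1 part, ATP1 (YBL099W), for subunit alpha, had 1.05, 0.72 and 0.19 (0.65 ± 0.44, SD, n = 3), and ATP2 (YJR121W), for subunit beta, had 0.61, 0.61 and 0.44 (0.55 ± 0.10, SD, n = 3; adjusted p = 0.0818). Both were above the median throughout. With each print block of the slide centred on its own median, ATP1 (0.68) and ATP2 (0.85) did pass, and ATP1 also passed with a robust variance prior fitted along the mean ratio and with centring on all spots. ATP16, for the delta subunit of the central stalk, had 0.08, 0.75 and 0.35, ATP3, for gamma, 0.34, 0.17 and −0.13, and ATP15, for epsilon, −0.42, −0.37 and 0.29. The genes of the rotating central stalk, ATP3, ATP15 and ATP16, therefore had means of 0.13, −0.17 and 0.39.

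In the membrane part and the peripheral stalk of the synthase, genes lay on both sides. ATP4 (YPL078C), for subunit b of the peripheral stalk, had 0.75, 0.60 and 0.20 (0.52 ± 0.28, SD, n = 3; adjusted p = 0.109). ATP7 (YKL016C), for subunit d, had −0.02, −1.13 and −0.46 (−0.54 ± 0.56, SD, n = 3; adjusted p = 0.126). ATP14 (YLR295C), for subunit h, had −0.06, −0.82 and −1.09 (−0.66 ± 0.54, SD, n = 3; adjusted p = 0.0636). ATP7 and ATP14 were both close to the median on replicate 1 and low on the other arrays, and both passed without replicate 1 (−0.79, adjusted p = 0.0328, and −0.96, adjusted p = 0.00809). ATP5, for the subunit that joins the stalk to F1, had a mean of 0.08, ATP17, for subunit f, 0.20, and ATP20, for subunit g, 0.38. ATP17 and ATP20 lay above the median on all arrays, at 0.04 to 0.30 and 0.19 to 0.68.

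The median of the genes was 0.67 for cytochrome c, 0.39 for the F1 part, 0.35 for the NADH dehydrogenases, 0.21 for complex III, 0.15 for complex IV, 0.14 for the membrane part and stalk of the synthase and −0.27 for complex II. Cytochrome c, with 2 genes, had the highest median on each array (0.60, 0.73 and 0.67), 0.48 ± 0.08 above that of the other 36 genes (SD, n = 3). Complex II, with 4 genes, had medians of 0.05, −0.11 and −0.65, below that of the other 34 genes on each array, with differences of −0.19, −0.31 and −0.92. For the NADH dehydrogenases, complex III, complex IV and the membrane part of the synthase, the difference from the other genes had no constant sign over the arrays, while the F1 part was 0.15, 0.46 and 0.09 above them. Members of a complex are not replicates, and no test was made over them. The gene at each end of a complex lay 1.78 units apart in complex III (CYT1 and QCR2), 1.68 in complex IV (COX5B and COX7) and 1.80 among the NADH dehydrogenases (NDE2 and NDI1), but 0.20 for the cytochrome c genes. Some medians moved when 1 array was left out: that of complex IV was 0.0035 without replicate 2 and 0.044 without replicate 3, that of the membrane part of the synthase was 0.022 without replicate 1 and 0.22 without replicate 2, that of the F1 part was 0.21 without replicate 2, and that of complex II was −0.087 without replicate 3. The median of the NADH dehydrogenases was 0.55 without replicate 2.

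**Figure D2:**
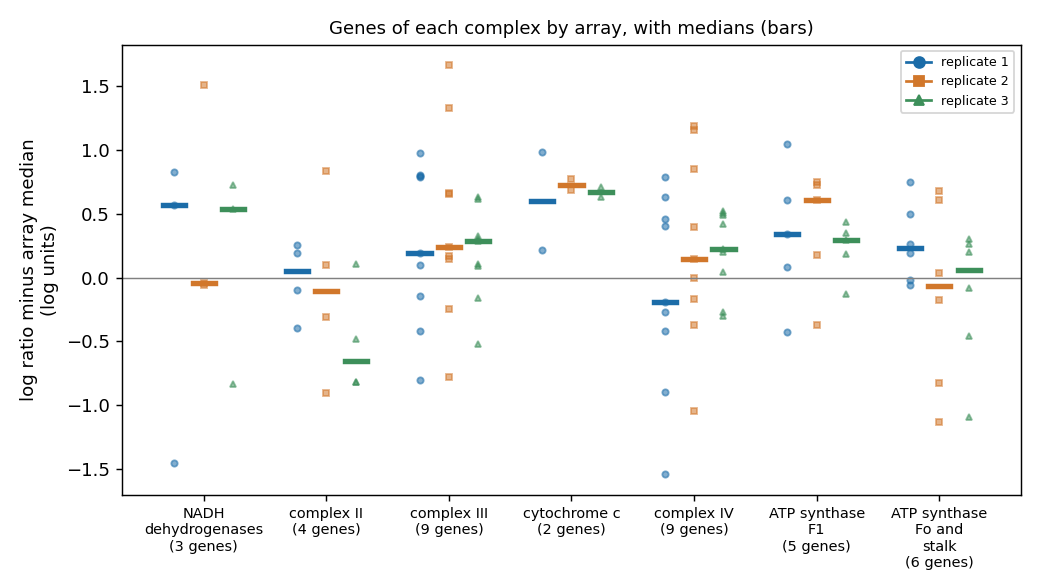
Log ratio minus the array median, in log units, of the genes of each complex (points) on replicates 1, 2 and 3, with the median of each complex on each array as a bar. Cytochrome c had medians of 0.60 to 0.73, complex II of −0.65 to 0.05, and genes within complexes III and IV spread over more than the distance between complexes.

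Isoform genes of 1 step were compared on each array, as 5 pairs. NDI1 lay below NDE2 on all 3 arrays, by −2.27, −1.57 and −1.56, with a mean difference of −1.80 ± 0.41 (SD, n = 3). NDI1 lay below NDE1 by −2.02, −0.02 and −1.37, and NDE1 below NDE2 by −0.25, −1.55 and −0.19. In the exact two-sided sign-flip permutation test over arrays these 3 pairs each had p = 0.25, the smallest that 3 arrays allow, and 0.417 after Benjamini-Hochberg adjustment over the 5 pairs. COX5A minus COX5B was −0.34, −1.22 and 0.02 (−0.51 ± 0.63, SD, n = 3; exact p = 0.5, adjusted 0.625). CYC1 minus CYC7 was 0.77, −0.08 and −0.08 (0.20 ± 0.49, SD, n = 3; exact p = 1, adjusted 1). In the cytochrome c pair, replicates 2 and 3 had differences near 0. Genes of a pair share sequence, so that a spot may take up RNA of its partner, and values of single isoforms are uncertain to that extent.

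**Figure D3:**
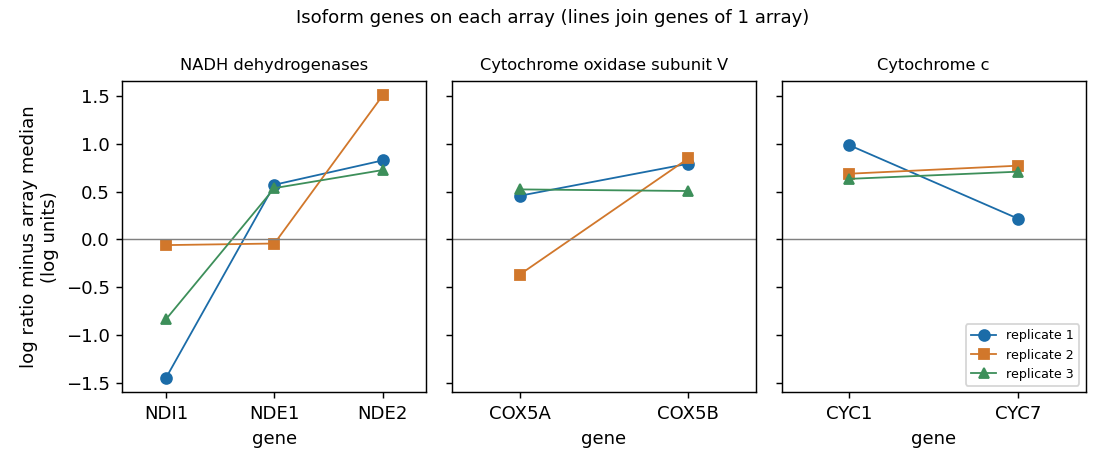
Log ratio minus the array median, in log units, of the isoform genes of the NADH dehydrogenases, of subunit V of cytochrome oxidase and of cytochrome c, with a line joining the genes of each array. NDI1 lay below NDE2 on all 3 arrays, while the other pairs came within 0.08 units of each other, or within 0.19 for NDE1 and NDE2, on at least 1 array.

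The ratio of these genes moved with the scatter between their repeated spots (the SD between the spots of a gene, averaged over arrays). The Spearman coefficient between the mean ratio and this scatter was −0.638 across the 38 genes and −0.462 across all named genes, a description with no test. The median scatter was 0.183 for the 6 genes called high and 0.465 for the 3 called low, against 0.166 and 0.408 for all genes called high and low. QCR2 (0.517), NDI1 (0.465) and COX7 (0.365) had more scatter than the median of all genes (0.274), and CYC1 (0.137), NDE2 (0.134) and COX5B (0.176) had less. With the trend of the ratio along this scatter removed, an alternative added after seeing the data, 2 genes still passed (5.26%, against 19.9% of all named genes), CYT1 on the high side (0.87, adjusted p = 0.0312) and COX7 on the low side (−0.82, adjusted p = 0.0489). NDE2 was then at 0.61 (adjusted p = 0.0784), CYC1 at 0.37 (adjusted p = 0.239), COX5B at 0.45 (adjusted p = 0.148), RIP1 at 0.59 (adjusted p = 0.128) and QCR7 at 0.47 (adjusted p = 0.134). On the low side NDI1 was at −0.50 (adjusted p = 0.235) and QCR2 at −0.35 (adjusted p = 0.252).

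**Figure D4:**
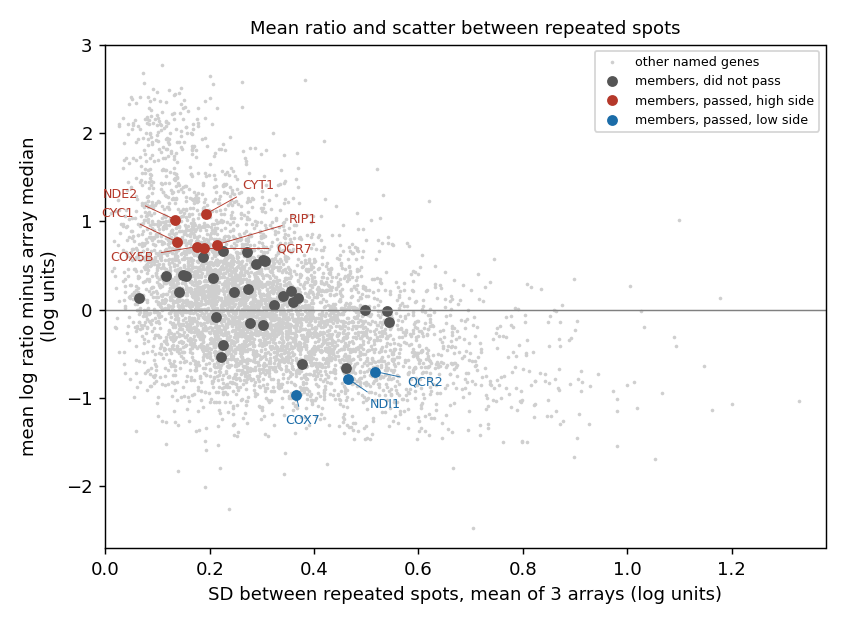
Mean log ratio minus the array median (vertical, log units) against the SD between the repeated spots of a gene (horizontal, log units) for the 38 genes, coloured by whether they passed on the high or low side, over the other named genes in grey. High-side calls have a median scatter of 0.183 and low-side calls of 0.465.

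The low-side calls also lay among spots without a gene symbol. Of 6 positions that carry no symbol in any print block, the 4 whose median lay more than 0.5 units below the array median on all arrays were taken, and their 192 spot pairs had medians of −0.99, −1.22 and −0.88 on replicates 1, 2 and 3. Their low level follows from that choice, and so do the percentiles and calls set against them. Of the 192 pairs, 18, 2 and 5 lay above the array median. COX7 stood at the 59.9th percentile of these pairs, NDI1 at the 76.6th and QCR2 at the 81.8th. Set against the median of these pairs in place of the array median, a change that moves all named genes up by 1.03, all 38 genes had means above 0, with 32 called high and 0 low. Those 3 genes then had values of 0.06, 0.25 and 0.33. The part of spot quality in the calls of either side was not tested.

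Other genes of respiration were taken from lists of assembly factors, cofactor synthesis, carriers and regulators, 101 genes of which 88 were measured. In limma 5 of these 88 passed on the high side, with 15 low-side calls, beside 16.0% and 12.5% of all named genes, and their median was −0.09. The 7 subunits encoded in mitochondrial DNA (COX1, COX2, COX3, COB, ATP6, ATP8 and OLI1) were not analysed here. The high-side genes were CYC3, for the lyase that attaches heme to cytochrome c (0.84 ± 0.25, adjusted p = 0.0152), HEM14, for protoporphyrinogen oxidase of heme synthesis (0.91 ± 0.08, adjusted p = 0.00831), COQ4, for a protein of coenzyme Q synthesis (0.67 ± 0.35, adjusted p = 0.0482), CYB2, for the lactate dehydrogenase that reduces cytochrome c (0.72 ± 0.34, adjusted p = 0.0342), and INH1, for the inhibitor protein of the F1 part (0.68 ± 0.31, adjusted p = 0.0414; SD, n = 3 each). HEM14 lay at 0.81, 0.95 and 0.97, the closest agreement among them. With the trend along the spot scatter removed, HEM14 (0.32, limma adjusted p = 0.309) and COQ4 (0.38, adjusted p = 0.233) did not pass. CYC3, CYB2 and INH1 still did (adjusted p = 0.035, 0.0455 and 0.0199). In heme synthesis as a whole, 1 of 8 genes passed, with a list median of 0.29.

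Assembly factors of cytochrome oxidase and factors of mitochondrial messages held 9 of the 15 low-side calls. Of 19 assembly factors of cytochrome oxidase, 5 passed on the low side and none (0) was high. The shares of all named genes were 12.5 and 16.0%. The median of this list was −0.09, and its median scatter between repeated spots was 0.407, against 0.274 for all named genes. Its low-side calls included PET191 (−1.13, −1.40 and −0.69), PET117 (−0.69, −1.14 and −1.02) and COX20, for a chaperone of subunit 2 (−0.24, −1.57 and −0.74). Of 13 factors that splice, stabilise or translate the messages of mitochondrial DNA, 4 passed on the low side and none (0) was high, with a median of −0.47. Low-side calls there included AEP2, needed for the message of OLI1 (−0.90 ± 0.45), PET309, needed for that of COX1 (−0.71 ± 0.28), and CBP2, a splicing factor of the COB message (−0.70 ± 0.15; SD, n = 3 each). With the trend along the spot scatter removed, PET117 and CBP2 still passed (limma adjusted p = 0.0377 and 0.0384). PET191, COX20, AEP2 and PET309 did not (adjusted p = 0.0657, 0.487, 0.129 and 0.197). Of the other low-side calls, CBS2, a message factor, still passed (adjusted p = 0.0358). COX18 and CMC1, assembly factors of the oxidase, did not (adjusted p = 0.192 and 0.82). PET494, a message factor not called before, passed on the low side in that setting (−0.89, adjusted p = 0.042).

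The remaining lists had at most 1 call a side, where 16.0% of all named genes were called high and 12.5% low. Lists this short do not separate such counts from those shares. In complex II, SHH3, a paralog of the anchor gene SDH3, was low at −0.72, −1.60 and −0.95 (limma adjusted p = 0.00451), while SDH3 itself was at 0.20, 0.84 and 0.11, and SDH5, needed to attach flavin to SDH1, lay at −0.68 ± 0.27 (SD, n = 3). ATP10, an assembly factor of the synthase, lay at −0.78 ± 0.55, and STF2, for a protein that stabilises the inhibited enzyme, at −0.93 ± 0.24 (SD, n = 3 each), on the other side from INH1. Of the regulators, HAP3, for a subunit of the Hap complex, passed on the low side at −0.86, −0.85 and −0.42 (adjusted p = 0.0332), and the other 5 genes of that list did not pass. AAC1, for the minor ADP/ATP carrier, was low at −0.82, −0.82 and −0.47 (adjusted p = 0.0332). It was the only call among 7 carriers and porins, where 28.5% of all named genes were called on either side. Once the trend along the spot scatter was removed, HAP3 (−0.47, limma adjusted p = 0.137) and ATP10 (−0.81, adjusted p = 0.0503) did not pass. SHH3, STF2, SDH5 and AAC1 still did in that setting (adjusted p = 0.0108, 0.00708, 0.0178 and 0.0247). Without replicate 3, 0 of the 88 genes passed on either side (5.83% of all named genes did). Without replicate 2 there were 3 high-side and 2 low-side calls among the 88, beside 9.71 and 6.34% of all named genes.

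**Figure D5:**
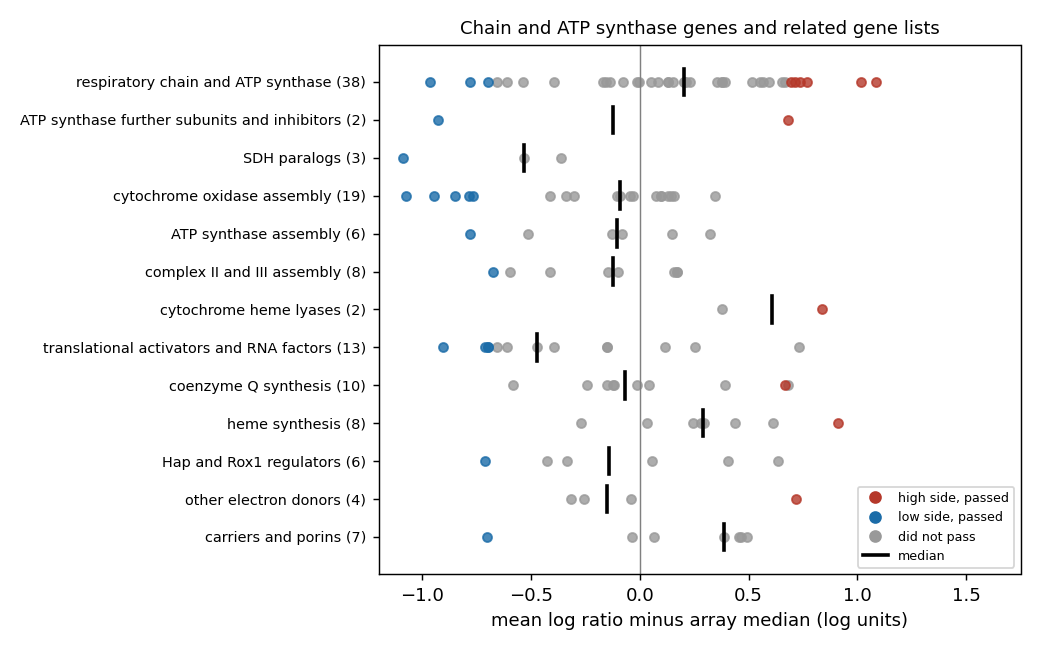
Mean log ratio minus the array median, in log units, of the chain and synthase genes (top) and of each related list with its number of measured genes, with the list median as a bar and calls coloured by side. The 13 translational activators and RNA factors had a median of −0.47 and the 38 chain and synthase genes one of 0.20.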

How the data were processed

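The table deposited by the authors gives, for each spot, a log ratio of the channels of an array, which may be log2 or natural log. Sources used here do not state its base, its direction, the scanner software or how it was normalized, and values are given in log units. Gene symbols came from the platform annotation (11138 of 13056 spots, 5539 genes), and locus names from RefSeq's gene table, assembly R64. Lists were matched by symbol, or by gene ID where a symbol had changed. Spots of a gene were averaged, and the median over named genes was subtracted on each array (−2.11, −2.30 and −1.59). With limma 3.58.1 in R 4.3.3 (lmFit with an intercept, eBayes, 13.3 prior degrees of freedom), the 3-array mean was tested against 0, with Benjamini-Hochberg adjustment over 5539 genes, and 95% intervals are those of this fit. The fit was tested on simulated data with known shifts. All chain and synthase genes are named, and of each related list up to 3 called genes with the largest absolute mean. CBS2, COX18, CMC1 and PET494 were named after their values were seen. The members and lists were chosen with earlier results of these data known. Alternatives changed the centring, the scaling between arrays, the spots used, the filter, the variance prior and the arrays. Channel intensities were not analysed here.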

Additional observations from a re-analysis of the deposited data

How the results depend on the processing

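Alternatives are other settings of 1 choice at a time. The side on which a gene lies depended on the centring. As deposited, which shifts the median of all genes by −2.0, 2 genes were called high and 5258 low in all, 0 and 38 of the chain and synthase genes (median −1.80) and 0 and 88 of the related genes. Against the spot pairs without a gene symbol, at positions picked because they lay low, a shift of 1.03, there were 4170 high and 10 low in all, 32 and 0 of the chain and synthase genes (median 1.23) and 65 and 0 of the related genes, and 25 and 13 chain and synthase genes changed side under these settings. As deposited, the medians were −1.65 for the NADH dehydrogenases, −2.27 for complex II, −1.79 for complex III, −1.33 for cytochrome c, −1.85 for complex IV, −1.61 for the F1 part and −1.86 for the membrane part and stalk, and the named genes that moved from the high to the low side had means of NDE1 −1.65, NDE2 −0.98, SDH3 −1.62, CYT1 −0.92, COR1 −1.79, RIP1 −1.26, QCR7 −1.31, QCR8 −1.41, QCR10 −1.87, CYC1 −1.23, CYC7 −1.44, COX5A −1.80, COX5B −1.29, COX6 −1.85, COX8 −1.77, COX12 −1.95, COX13 −1.33, ATP1 −1.35, ATP2 −1.45, ATP3 −1.87, ATP16 −1.61, ATP4 −1.48, ATP5 −1.92, ATP17 −1.80, ATP20 −1.62, INH1 −1.32, CYC3 −1.16, COQ4 −1.33, HEM14 −1.09 and CYB2 −1.28. Against the pairs without a symbol, the medians were 1.38 for the NADH dehydrogenases, 0.75 for complex II, 1.24 for complex III, 1.69 for cytochrome c, 1.18 for complex IV, 1.42 for the F1 part and 1.17 for the membrane part and stalk, and the named genes that moved from the low to the high side and were called before or after had means of NDI1 0.25, SDH1 0.87, SDH4 0.63, QCR2 0.33, QCR6 1.01, QCR9 0.89, COX4 0.95, COX7 0.065, COX9 1.02, ATP15 0.86, YAP1 0.23, STF2 0.10, PET117 0.080, COX20 0.18, ATP10 0.25, SDH5 0.35, AEP2 0.12, PET309 0.31, CBP2 0.33, HAP3 0.32 and AAC1 0.32. The differences within isoform pairs were the same under both. Relative to each shift, an alternative added after seeing the data, no called chain or synthase gene changed side, and 2 high and 0 low calls (as deposited) or 5 high and 2 low calls (against pairs without a symbol) remained among the main ones. With the first spot of a gene alone, 413 genes in all were low, 2 chain genes were high, and 2 related genes were high and 8 low, with a median of 0.12 for complex III. With the last spot alone, 2 chain genes were high, 1 related gene was high and 7 were low, and the medians were 0.24 for all members, 0.34 for complex III and 0.55 for cytochrome c. Without genes above the 75th percentile of scatter, 4154 genes in all and 32 chain and synthase genes were left. Among the genes left, 372 in all, 1 chain gene and 7 related genes were low. The medians, over fewer genes than before, were 0.29 for all members and 0.64 for complex III, which lost QCR2, QCR6 and QCR9. With print blocks centred, 3 related genes were high, and the medians were 0.24 for all members and 0.36 for complex III. With the trend along the scatter removed, 1 chain gene was high and 1 low, 3 related genes were high, the medians of complex III, cytochrome c and the F1 part were 0.37, 0.47 and 0.032, and NDI1 minus NDE2 was −1.10. The median of all members was 0.24 with centring on all spots, 0.23 with equal spread and 0.24 with quantile normalization, so its small shifts exceeded the spread of its 3 array values. Leaving out 1 array gave 275 to 826 high and 48 to 617 low genes in all, 0 to 4 high and 0 to 3 low chain and synthase genes, and 0 to 5 high and 0 to 10 low related genes. The medians then ran from 0.20 to 0.23 for all members, 0.17 to 0.26 for complex III, 0.21 to 0.45 for the F1 part, 0.0035 to 0.17 for complex IV, 0.022 to 0.22 for the membrane part and stalk, −0.38 to −0.087 for complex II, 0.25 to 0.55 for the NADH dehydrogenases and 0.64 to 0.70 for cytochrome c. Of 882 values of single genes under alternatives, 629 kept their side of the threshold, 157 no longer passed, 45 passed newly on the same side and 51, all under the 2 centrings that shift all genes, changed side and were called before or after. The cause was not tested, and signal over background is unknown for every spot. The motif search in promoters was not run. Every array is itself a ratio of the strains, so the test of the mean ratio already compares the strains within each array. There is 1 group of arrays, so no further pairing was possible.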
